A study of Rattus norvegicus with 9 samples.

Results

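The neurotrophins, their receptors and 2 activity-linked growth genes were followed across 9 hippocampal libraries of male rats. The set holds 8 genes of the 18733 in the count tables, chosen by symbol, with earlier results of these data known. They are the ligands Bdnf, Ntf3 and Gdnf, the receptors Ntrk2, Ntrk3 and Ngfr, and the secreted or membrane-anchored products of Nrn1 and Vgf. All 8 were found in the tables, and 7 passed the filter on low counts, Gdnf being the exception. Each of 3 groups had 3 rats with 1 library each. The taVNS rats had middle cerebral artery occlusion (MCAO, a surgical model of ischaemic stroke), showed cognitive impairment, and received transcutaneous auricular vagus nerve stimulation, applied through the skin of the outer ear, for 14 days. The PSCI rats (post-stroke cognitive impairment) had MCAO and the same impairment and were fed routinely for 2 weeks. The control rats were fed routinely. Rats with MCAO entered these groups when 2 behavioural scores lay under a limit stated as 20% of the control mean, and were then randomised. Strain, age, sham surgery, sham stimulation and the hemisphere sampled are not given in the labels, and the extraction text speaks of mice although the labels name the rat. Each library is taken to be 1 animal, and edgeR p-values set group differences against a spread between such libraries that was estimated over all 9.

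Neurotrophins are secreted proteins that keep neurons alive and strengthen synapses. BDNF acts mainly through the receptor kinase TrkB (Ntrk2) and NT-3 (Ntf3) mainly through TrkC (Ntrk3), while p75 (Ngfr) binds the neurotrophins and, with sortilin, their uncleaved precursors. GDNF belongs to another family and acts through GFRα co-receptors and the kinase RET. In the hippocampus Bdnf is made by excitatory neurons in response to activity, Ntf3 is typical of dentate granule cells, and Nrn1 (neuritin, a membrane-anchored protein that promotes neurite growth) and Vgf (the precursor of several secreted peptides) are both induced by neuronal activity and by BDNF.

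Promoter sequence is shown because Bdnf and Vgf are textbook targets of CREB, the factor that binds the cAMP response element TGACGTCA. Windows of 300 bases, 250 before and 50 after an annotated start, were read from RefSeq on build GRCr8, which held them for 4 of the 8 genes (6 for Bdnf, 3 for Ntf3, 1 each for Gdnf and Vgf). These coordinates are GRCr8 and not the build of the count tables, mRatBN7.2. Capitals mark the motif letters, and each stretch reads 5′ to 3′ on the strand of its gene. Vgf, chr12:25277073-25277140, minus strand, holds the full element 90 bases before the start. Bdnf, chr3:116637793-116637857, plus strand, and Gdnf, chr2:58621248-58621312, plus strand, hold only its core, TGACG, read on the reverse strand, 35 and 49 bases before the start. Of the 6 Bdnf windows only this 1 held the core.
Vgf: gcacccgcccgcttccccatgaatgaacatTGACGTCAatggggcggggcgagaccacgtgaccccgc
Bdnf: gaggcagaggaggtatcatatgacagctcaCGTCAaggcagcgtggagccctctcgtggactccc
Gdnf: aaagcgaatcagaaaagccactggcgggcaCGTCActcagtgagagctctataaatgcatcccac
Searched on both strands, the full element occurred in 1.83% of 33469 RefSeq windows of the same length and the core in 21.2%; every full element also contains the core. The AP-1 letters TGANTCA occurred in 7.33% of windows and, among the 4 genes, in 1 Bdnf window. The Egr letters GCGNGGGCG occurred in 4.98% of windows and, among the 4 genes, in that of Vgf. None of these letters lay in the 3 Ntf3 windows. These shares are per window, so a gene with more windows has more occasions for a match. A match is a description of the sequence and no measure of binding.

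The libraries held 13747389 to 15415694 counts, and levels are given in CPM, counts scaled to TMM-adjusted library size. A count of 0 in a library allows at most 0.191 to 0.220 CPM. Such floors, and the Poisson intervals of counts, cover counting error only, while the intervals of fold changes include the spread between libraries. Neuronal markers were present in every library: the summed level of 9 excitatory neuron markers was 5011 to 7811 CPM in taVNS, 3110 to 7192 CPM in PSCI and 5332 to 6850 CPM in control. The lowest of these was the library PSCI 2, where the sum stood 1.02 log2 units under the control mean. The summed level of 6 dentate granule cell markers was 171 to 226 CPM in taVNS, 96.6 to 154 CPM in PSCI and 190 to 281 CPM in control, with up to 2 of the 6 at 0 in a library; Prox1 was lowest in PSCI 2, at 7.07 CPM. Markers of neighbouring regions summed to 93.0 to 148 CPM for neocortex (6 genes), 63.1 to 110 CPM for striatum (6 genes) and 36.5 to 62.7 CPM for thalamus and habenula (5 genes) over the 9 libraries. Reactive astrocyte markers (7 genes) summed to 914 to 1456 CPM in taVNS, 4695 to 9361 CPM in PSCI and 672 to 1252 CPM in control. Summed markers of meninges and fibroblasts (9 genes) reached 1113 CPM in taVNS 3 and 657 CPM in PSCI 2, against 115 to 199 CPM in the other 7 libraries. In bulk tissue, fewer cells of a type and less RNA per cell cannot be told apart.

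The results for the set can be stated in brief. None of the 7 genes tested was called in any comparison at an adjusted p under 0.05 (edgeR quasi-likelihood test, Benjamini-Hochberg over 14840 genes). Vgf came nearest: it was lower in all 3 taVNS libraries than in all PSCI and all control libraries. Bdnf, Ntf3 and Nrn1 were unequal among the 3 PSCI libraries, with ratios of highest to lowest of 11.2, 6.21 and 3.56. Ntrk2 had similar levels in the 3 groups, and Ngfr and Gdnf were near the detection limit.

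**Figure D1:**
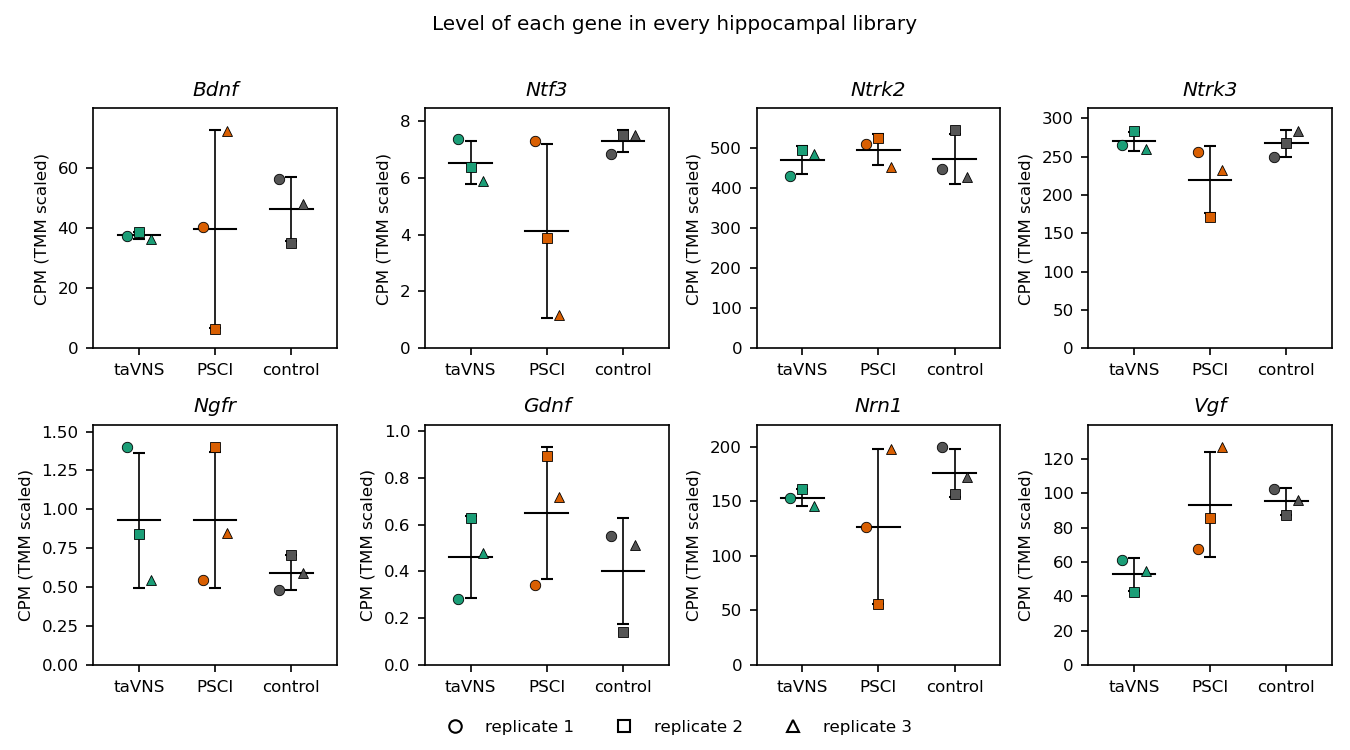
Level of each of the 8 genes in each library, in CPM after TMM scaling (vertical axis from 0); points are libraries, shaped by replicate number, and the line and bars are the mean ± SD of 3 libraries. The 3 taVNS points of Vgf (42.5 to 61.3 CPM) lie under all other points of that gene, and PSCI points of Bdnf run from 6.44 to 72.3 CPM.

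Bdnf, the main activity-regulated neurotrophin of the hippocampus, was measured at 37.4, 38.9 and 36.5 CPM in taVNS, at 40.3, 6.44 and 72.3 CPM in PSCI, and at 56.2, 35.1 and 48.0 CPM in control. The highest and the lowest library of all 9 were both PSCI, so the PSCI range enclosed the other groups. The low value of PSCI 2 rests on 101 counts (95% Poisson interval 82.3 to 123), against 496 to 1107 counts in the other 8 libraries. Bdnf averaged 37.6 ± 1.21 CPM in taVNS, 39.7 ± 32.9 CPM in PSCI and 46.5 ± 10.6 CPM in control (SD, n = 3 each). The log2 fold change was −0.08 ± 0.61 for taVNS against PSCI (SE, edgeR adjusted p = 0.961) and −0.23 ± 0.61 for PSCI against control (95% interval −1.60 to 1.14, adjusted p = 0.861). Without PSCI 2 the value for PSCI against control was 0.28, so that library sets the sign. Against control, taVNS stood at −0.31 (adjusted p = 0.9999).

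Ntf3, which encodes NT-3, had 7.36, 6.36 and 5.88 CPM in taVNS, 7.29, 3.89 and 1.17 CPM in PSCI, and 6.83, 7.51 and 7.49 CPM in control. PSCI 1 lay at the control level, while PSCI 2 and PSCI 3 lay under every taVNS and control library. The lowest, PSCI 3, held 18 counts (95% Poisson interval 10.7 to 28.4), against 61 to 107 in the other libraries. The mean was 6.53 ± 0.755 CPM in taVNS, 4.12 ± 3.07 CPM in PSCI and 7.28 ± 0.386 CPM in control (SD, n = 3 each). The log2 fold change was 0.67 ± 0.48 for taVNS against PSCI (SE, edgeR adjusted p = 0.472) and −0.82 ± 0.48 for PSCI against control (95% interval −1.90 to 0.26, adjusted p = 0.330). When PSCI 1 was left out, Ntf3 passed the threshold in PSCI against control at −1.52 (edgeR adjusted p = 0.0404). The granule cell markers did not share 1 pattern in these libraries. Calb1, which made up most of their sum in PSCI 2, had 62.4, 117 and 50.3 CPM in PSCI 1, 2 and 3, against 118 to 191 CPM in control. Prox1 had 45.1, 7.07 and 21.7 CPM in PSCI 1, 2 and 3, against 21.2 to 44.9 CPM in control, and C1ql2 had 39.9, 6.63 and 18.9 CPM in PSCI, against 26.7 to 53.6 CPM in control. Prox1 and C1ql2 were thus lowest in PSCI 2, while Calb1, like Ntf3, was lowest in PSCI 3. The part of granule cell content in the Ntf3 values was not tested.

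Gdnf was at the edge of detection, with 4, 9 and 7 counts in taVNS, 5, 14 and 11 in PSCI, and 8, 2 and 7 in control. The groups overlapped in every comparison. Its mean was 0.463 ± 0.175 CPM in taVNS, 0.650 ± 0.282 CPM in PSCI and 0.403 ± 0.227 CPM in control (SD, n = 3 each). A two-sided exact permutation test on log2 CPM gave p = 0.4 for taVNS against PSCI, p = 0.7 for taVNS against control and p = 0.4 for PSCI against control, where 0.1 is the smallest value that 3 libraries against 3 allow.

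Ntrk2, which encodes TrkB, was measured at 429, 495 and 484 CPM in taVNS, at 508, 524 and 452 CPM in PSCI, and at 445, 543 and 425 CPM in control. The 3 groups overlapped throughout. Its log2 fold change was −0.08 ± 0.12 for taVNS against PSCI (SE, edgeR adjusted p = 0.772) and 0.07 ± 0.12 for PSCI against control (95% interval −0.20 to 0.34, adjusted p = 0.777). Ntrk2 is also made by astrocytes, largely as a short form without the kinase, and the reactive astrocyte marker sum was several times higher in PSCI than in the other groups. On the authors' RPKM the Ntrk2 level was 71.7, 80.7 and 81.6 in taVNS, 92.5, 104 and 76.1 in PSCI, and 70.4, 89.4 and 69.1 in control. The highest RPKM was that of PSCI 2, and the highest CPM that of control 2. The reactive astrocyte sum was highest in PSCI 2 (9361 CPM) and next in PSCI 3 (7575 CPM). In PSCI 3 the Ntrk2 RPKM lay under that of control 2. The Ntrk2 counts per unit of RPKM, given below, were lowest in PSCI 2 and PSCI 1, so RPKM stands higher there relative to CPM. The part of astrocytes in these values was not tested.

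Ntrk3, which encodes TrkC, had 266, 284 and 260 CPM in taVNS, 256, 172 and 232 CPM in PSCI, and 250, 268 and 284 CPM in control. Every taVNS library lay above every PSCI library, though PSCI 1 lay only just under the lowest taVNS library. The log2 fold change was 0.29 ± 0.14 for taVNS against PSCI (95% interval −0.02 to 0.61, edgeR adjusted p = 0.265) and −0.28 ± 0.14 for PSCI against control (95% interval −0.59 to 0.03, adjusted p = 0.25). Without PSCI 2, the lowest library, the value for PSCI against control was −0.12. For taVNS against control it was 0.01.

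Ngfr, which encodes p75, had 20, 12 and 8 counts in taVNS, 8, 22 and 13 in PSCI, and 7, 10 and 8 in control. The values of all groups overlapped. Its mean was 0.929 ± 0.434 CPM in taVNS, 0.932 ± 0.434 CPM in PSCI and 0.593 ± 0.113 CPM in control (SD, n = 3 each). The log2 fold change was −0.01 ± 0.46 for taVNS against PSCI (SE, edgeR adjusted p = 0.993) and 0.65 ± 0.48 for PSCI against control (adjusted p = 0.453).

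Nrn1 was measured at 153, 161 and 146 CPM in taVNS, at 126, 55.4 and 198 CPM in PSCI, and at 200, 156 and 172 CPM in control. As for Bdnf, PSCI 2 was the lowest library of all, and PSCI 3 was the highest of its group. Nrn1 averaged 153 ± 7.59 CPM in taVNS, 126 ± 71.1 CPM in PSCI and 176 ± 22.1 CPM in control (SD, n = 3 each). The log2 fold change was 0.28 ± 0.35 for taVNS against PSCI (SE, edgeR adjusted p = 0.707) and −0.48 ± 0.35 for PSCI against control (95% interval −1.27 to 0.32, adjusted p = 0.446). The value for PSCI against control was −0.12 without PSCI 2 and −0.96 without PSCI 3.

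Vgf had 61.3, 42.5 and 54.7 CPM in taVNS, 67.5, 85.4 and 127 CPM in PSCI, and 103, 87.3 and 96.1 CPM in control. The 3 taVNS libraries were the 3 lowest of the 9, while PSCI and control overlapped. Vgf averaged 52.9 ± 9.53 CPM in taVNS, 93.3 ± 30.6 CPM in PSCI and 95.4 ± 7.77 CPM in control (SD, n = 3 each). For taVNS against PSCI the log2 fold change was −0.82 ± 0.22 (SE, 95% interval −1.32 to −0.32, edgeR adjusted p = 0.0649). For taVNS against control it was −0.85 ± 0.22 (95% interval −1.35 to −0.35, edgeR adjusted p = 0.9999). The unadjusted edgeR p-values of these contrasts were 0.00459 and 0.00369. PSCI against control gave −0.03 ± 0.22 (adjusted p = 0.949). DESeq2 called Vgf in taVNS against PSCI (adjusted p = 0.0105), and so did edgeR without PSCI 1 (−1.01, adjusted p = 0.0122), while without PSCI 3 the value for taVNS against PSCI was −0.53.

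**Figure D2:**
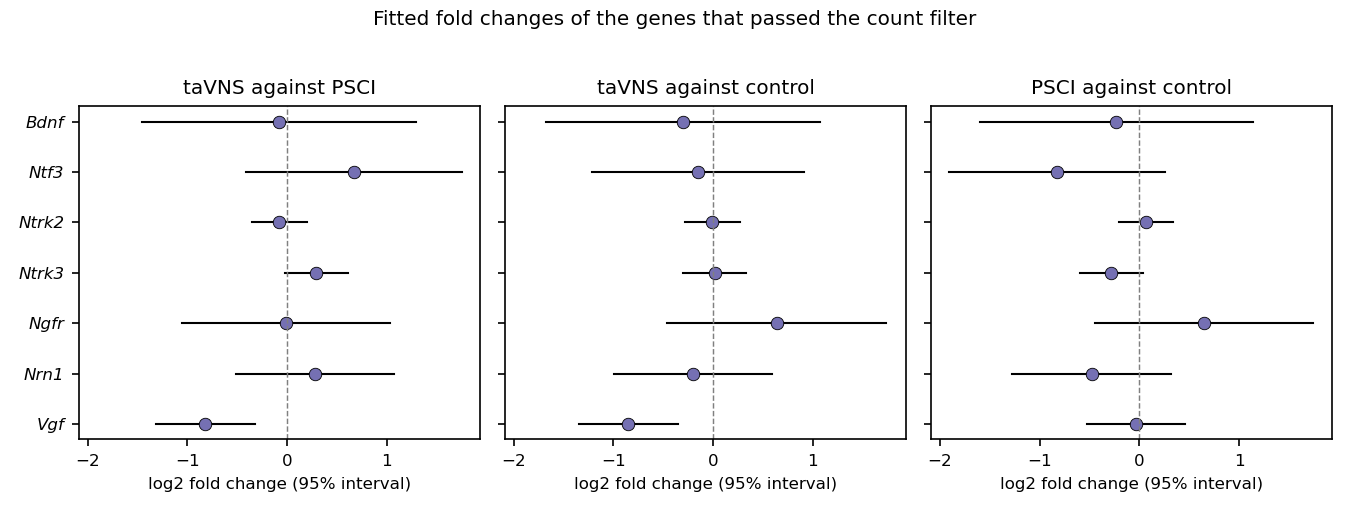
Log2 fold change of the 7 tested genes in taVNS against PSCI, taVNS against control and PSCI against control, with 95% intervals from edgeR. Only the intervals of Vgf for taVNS against PSCI (−1.32 to −0.32) and for taVNS against control (−1.35 to −0.35) leave out 0, and no gene reached an adjusted p under 0.05.

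Across the set, 0 of the 7 tested genes were called in taVNS against PSCI, where 5.75% of all genes tested were (0.842% higher and 4.91% lower). In taVNS against control 0 were called, as were 0% of all genes, and DESeq2 called 9 genes of all those tested there; at an unadjusted p under 0.05, edgeR counted 1 of the 7 (Vgf) and 3.75% of all genes. In PSCI against control 0 of the 7 were called, where 9.85% of all genes were (7.71% higher and 2.14% lower), and 0 of the 7 had an unadjusted p under 0.05, against 25.3% of all genes. For taVNS against PSCI 1 of the 7 (Vgf) had one, against 21.1% of all genes. Groups did not overlap for 2 of the 7 genes in taVNS against PSCI (Ntrk3 and Vgf), a state reached by 25.9% of all genes and, with taVNS the lower as for Vgf, by 15.2%. In taVNS against control that held for 1 of the 7 (Vgf), against 11.1% of all genes (5.4% with taVNS the lower), and in PSCI against control for 0 of the 7, against 27.4% of all genes (11.3% with PSCI the lower). With 7 genes, these counts lie near the rates over all genes or below them. The 3 comparisons share libraries, so their values are not independent of each other.

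The spread within PSCI set these genes apart from one another. The SD of log2 CPM among the 3 PSCI libraries was 1.81 for Bdnf, larger than that of 99.2% of all genes tested, 1.27 for Ntf3 (97.6%) and 0.929 for Nrn1 (94.6%). It was 0.114 for Ntrk2, larger than that of only 24.1% of genes. In taVNS the SD of Bdnf was 0.0463, larger than that of 9.0% of genes, and in control it was 0.345 (81.9%). The median SD over all genes was 0.149 in taVNS, 0.217 in PSCI and 0.167 in control. These are descriptions of 3 libraries a group.

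The wide genes did not fall in the same library. Relative to the control mean, Bdnf stood at −2.85 log2 units in PSCI 2 and at 0.64 in PSCI 3, and Nrn1 at −1.67 and 0.17 in the same libraries. The excitatory marker sum in PSCI 2 was −1.02 on the same scale, and its single markers there ranged from 0.05 for Fibcd1 to −1.87 for Neurod6, with Cpne4 at −1.86 and Camk2a at −1.58. Ntf3 took the other order, with −0.90 in PSCI 2 and −2.63 in PSCI 3. The granule cell marker sum stood at −0.84 in PSCI 2 and −1.30 in PSCI 3, an order set by Calb1 (−0.47 and −1.68). Prox1 (−2.26 in PSCI 2 and −0.64 in PSCI 3) and C1ql2 (−2.48 and −0.97 in the same libraries) had the opposite order. The part of these marker differences in the values was not tested.

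**Figure D3:**
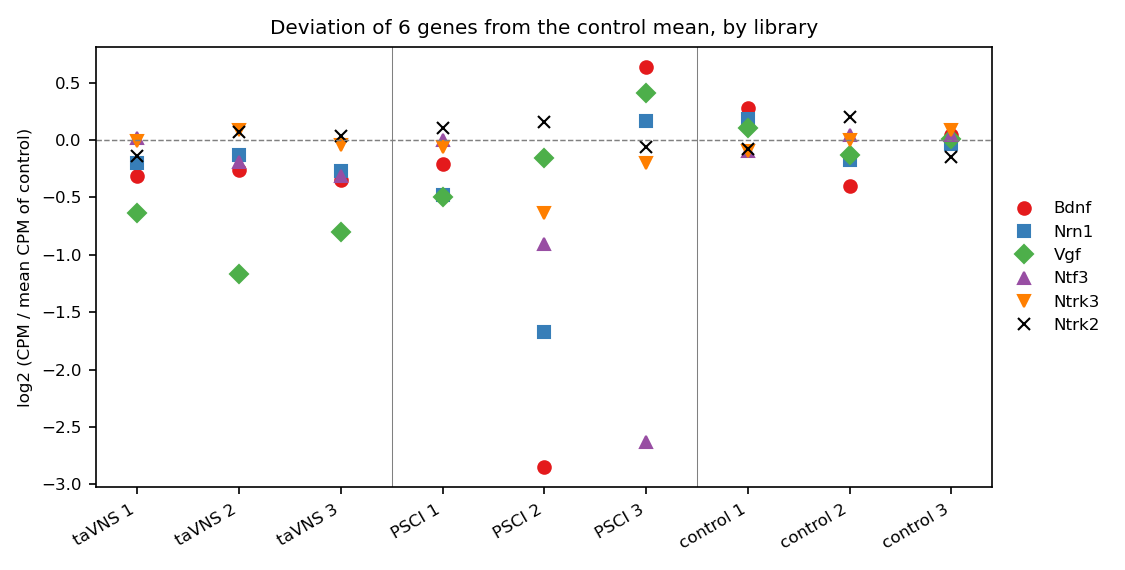
Deviation of 6 genes from their mean in control, in log2 units, for each of the 9 libraries. Bdnf (−2.85) and Nrn1 (−1.67) are lowest in PSCI 2, Ntf3 (−2.63) is lowest in PSCI 3, and Vgf (−0.64 to −1.17) lies lowest of the 6 in all 3 taVNS libraries.

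The genes whose profiles over the 9 libraries lay nearest to the 3 wide genes were ranked by the root mean square difference of centred log2 CPM, among 13472 genes. For Bdnf these were Kcnv1, a modulatory potassium channel subunit (0.346 log2 units), Cavin4, a caveolar protein (0.356), and Rem2, an activity-regulated small GTPase (0.378). Cavin4 averaged only 1.03 CPM, and its 0.127 CPM in PSCI 2 lay under the floor of 0.191 CPM there. For Nrn1 the nearest were Atp2a1, a calcium pump (0.145), Kcnv1 again (0.156) and Cabp1, a calcium-binding protein of neurons (0.183). Atp2a1 was low as well, with a mean of 1.68 CPM and 0.574 CPM in PSCI 2. Kcnv1 itself had 30.8, 35.2 and 28.6 CPM in taVNS, 25.1, 9.24 and 45.2 CPM in PSCI, and 48.7, 29.4 and 31.6 CPM in control. Genes picked by nearest profile have similar high and low libraries by the way they were picked, which is no separate result. For Ntf3 the nearest were Hlf, a transcription factor of the PAR bZIP family (0.269), Nat8f5 (0.301) and Stc1, a secreted glycoprotein (0.334). Hlf had 118, 86.3 and 83.8 CPM in taVNS, 86.4, 56.5 and 28.8 CPM in PSCI, and 124, 96.9 and 99.0 CPM in control.

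Levels of different genes were compared on the authors' RPKM, which is scaled for gene length. In control the order was Nrn1 (129 ± 15.0), Ntrk2 (76.3 ± 11.4), Ntrk3 (35.6 ± 1.94), Vgf (34.9 ± 2.86), Bdnf (11.98 ± 2.62), Ntf3 (6.76 ± 0.422), Ngfr (0.193) and Gdnf (0.103), all in RPKM (SD, n = 3). Ntrk3 and Vgf did not differ beyond their spread there. In taVNS the same order held, but Vgf (19.7 ± 4.04 RPKM) lay clear of Ntrk3 (37.5 ± 1.12 RPKM). In PSCI Nrn1 (95.3 ± 51.9 RPKM) and Ntrk2 (90.9 ± 14.0 RPKM) overlapped, and so did Vgf (35.2 ± 11.6 RPKM) and Ntrk3 (31.5 ± 5.32 RPKM).

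Ratios within a library show how unevenly the 2 ligands and the 2 kinases moved. The RPKM ratio of Bdnf to Ntf3 was 1.43, 1.71 and 1.74 in taVNS, 1.55, 0.464 and 17.1 in PSCI, and 2.29, 1.31 and 1.78 in control. The ligands were thus within a narrow band in taVNS and control, while PSCI 2 and PSCI 3 lay on opposite sides of it. The RPKM ratio of Ntrk2 to Ntrk3 was 1.87, 2.23 and 2.16 in taVNS, 2.58, 4.06 and 2.30 in PSCI, and 2.08, 2.53 and 1.83 in control. The highest was PSCI 2, where Ntrk3 was lowest.

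The 2 deposited tables also allow a look at transcript make-up, since a gene's counts per unit of RPKM follow the mean length that was assigned to it. Among 9526 well-measured genes, the SD of this quotient over the 9 libraries had a median of 0.0103 log2 units. Ntrk2, with 14 RefSeq transcripts that include short and full-length receptors, had an SD of 0.0724, larger than that of 94.3% of genes. Its quotient, scaled for library size, was 88.8, 86.2 and 88.1 in taVNS, 79.6, 77.7 and 86.3 in PSCI, and 89.3, 87.2 and 88.6 in control. PSCI 1 and PSCI 2 lay well under the rest and PSCI 3 close to the lowest control library, with no overlap between PSCI and control. The geometric mean in PSCI was 8.19% lower than in control (two-sided exact permutation p = 0.1, the smallest possible). The arithmetic means were 81.2 ± 4.48 in PSCI and 88.4 ± 1.11 in control (SD, n = 3 each). PSCI lay under control without overlap for 5.96% of these genes. Which transcripts changed cannot be read from gene totals. Ntrk3, with 8 transcripts, also lay lower in PSCI than in control without overlap, at 103.3, 103.5 and 102.2, against 104.1, 108.9 and 108.3 in control. The taVNS values were 102.8, 110.3 and 102.0, so taVNS overlapped PSCI, and taVNS 3 was the lowest of the 9 libraries. For Ntrk3 the difference of PSCI from control was −0.06 log2 units (two-sided exact permutation p = 0.1). The SD of the Ntrk3 quotient, 0.0436, was larger than that of 85.8% of genes. For Nrn1, with 1 transcript, the SD was 0.00221.

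**Figure D4:**
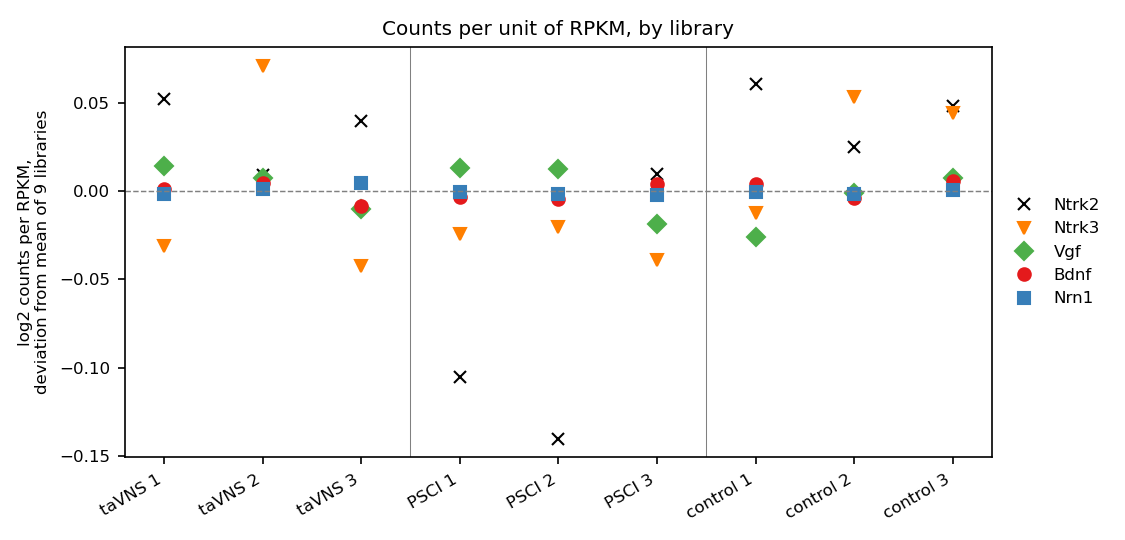
Counts per unit of RPKM for 5 genes in each library, in log2 units from the mean of the 9 libraries. Ntrk2 is lowest in PSCI 1 and PSCI 2, while Bdnf and Nrn1 stay close to 0 in every library.

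Other genes of the pathways were described from 6 lists with 111 genes, of which 104 passed the filter. Of these 0 were called higher and 9 lower in taVNS against PSCI, with a median log2 fold change of 0.00. Over all genes tested 0.842% were called higher and 4.91% lower there. In taVNS against control 0 of the 104 were called by edgeR and 2 by DESeq2. At an unadjusted edgeR p under 0.05 there were 10, against 3.75% of all genes. In PSCI against control 10 of the 104 were called higher and 7 lower, where 7.71% of all genes were higher and 2.14% lower. The median log2 fold change was −0.09, against 0.00 over all genes. The counts of single lists below stand beside the same shares over all genes. The reactive astrocyte and microglial marker sums moved with both comparisons that hold PSCI: microglial markers summed to 247 to 322 CPM in taVNS, 472 to 754 CPM in PSCI and 172 to 234 CPM in control. Their part in the changes below was not tested.

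Among 14 other ligands and receptors tested, Ret and Sorcs1 were called. Ret, the signalling kinase for GDNF, had 4.62, 9.30 and 7.17 CPM in taVNS, 20.5, 32.0 and 20.6 CPM in PSCI, and 12.1, 13.2 and 7.64 CPM in control. All PSCI libraries lay above all others. Ret was lower in taVNS against PSCI (log2 fold change −1.79, edgeR adjusted p = 0.0139) and higher in PSCI against control (1.15 ± 0.30, adjusted p = 0.0418). Sorcs1, a sorting receptor related to sortilin, had 33.1, 34.7 and 28.2 CPM in taVNS, 45.1, 54.6 and 54.2 CPM in PSCI, and 33.5, 30.1 and 33.0 CPM in control. It fell by 0.68 on the log2 scale in taVNS against PSCI (edgeR adjusted p = 0.0139) and rose by 0.67 ± 0.12 in PSCI against control (adjusted p = 0.00881). Both calls in taVNS against PSCI ended without taVNS 1 or taVNS 3 (adjusted p up to 0.0570 for Ret and 0.0626 for Sorcs1). The Ret call in PSCI against control ended without any control library, PSCI 2, PSCI 3 or taVNS 3 (0.91 to 1.30, adjusted p up to 0.135). The remaining genes named here were not called in any comparison. Sortilin (Sort1) averaged 730 ± 203 CPM in taVNS, 684 ± 203 CPM in PSCI and 679 ± 69.6 CPM in control, and the GDNF co-receptor Gfra1 averaged 76.8 ± 3.48 CPM in taVNS, 71.8 ± 16.9 CPM in PSCI and 65.6 ± 4.15 CPM in control (SD, n = 3 each). Ntf4 held 6 counts in taVNS, 3 in PSCI and 0 in control over 3 libraries each and was not tested.

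Of 14 genes for cleavage and release that were tested, 1 rose and 2 fell in PSCI against control. Plat, tissue plasminogen activator, which starts the extracellular cleavage of proBDNF through plasmin, rose by 0.46 (edgeR adjusted p = 0.0285). Pcsk1 and Cpe, a convertase and a carboxypeptidase of secretory granules, were lower, at −0.76 (edgeR adjusted p = 0.0470) and −0.47 (adjusted p = 0.0447). Pcsk1 averaged 28.2 ± 3.07 CPM in taVNS, 22.1 ± 7.17 CPM in PSCI and 37.5 ± 2.03 CPM in control (SD, n = 3 each). Plat was lower in taVNS against PSCI (−0.44, edgeR adjusted p = 0.0461), and 0 genes of the list were called higher there. The Plat call in PSCI against control ended without any control library, PSCI 2 or PSCI 3 (0.36 to 0.46, adjusted p up to 0.0892). The Plat call in taVNS against PSCI and the Cpe call each ended without any single library except PSCI 1 (adjusted p up to 0.172 for Plat and 0.147 for Cpe). The Pcsk1 call ended without any single library except PSCI 3 (log2 fold changes −0.80 to −0.57, adjusted p up to 0.146).

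Of 38 Trk adaptors and kinases, 2 rose and 0 fell in PSCI against control: Shc1, an adaptor that links Trk receptors to Ras, by 1.41 (edgeR adjusted p = 0.00743) and Nras, a Ras GTPase, by 0.45 (adjusted p = 0.0375). Both were lower in taVNS against PSCI, at −0.98 (edgeR adjusted p = 0.0410) and −0.48 (adjusted p = 0.0396). The list's median log2 fold change in PSCI against control was −0.01. The Shc1 call in taVNS against PSCI and the Nras call in PSCI against control ended without any single library except PSCI 1 (adjusted p up to 0.151 for Shc1 and 0.121 for Nras). That of Nras in taVNS against PSCI ended without any but PSCI 1 or control 3 (adjusted p up to 0.133). Of 13 partners of p75, 4 rose in PSCI against control and 0 fell. They were Traf6, an adaptor of inflammatory signalling (2.14, edgeR adjusted p = 1.24e-05), Arhgdia, a GDP dissociation inhibitor (0.52, adjusted p = 0.0253), the GTPase Rhoa (0.45, adjusted p = 0.0354) and the kinase Ripk2 (0.50, adjusted p = 0.0360). Lower in taVNS against PSCI were Traf6 (−2.22, edgeR adjusted p = 8.98e-06), Arhgdia (−0.61, adjusted p = 0.0191) and Rhoa (−0.51, adjusted p = 0.0329). The Arhgdia calls ended without PSCI 3 in both comparisons, without any control library in PSCI against control (adjusted p up to 0.0934), and without any taVNS library in taVNS against PSCI (adjusted p up to 0.0823). Those of Rhoa ended without any single library except control 1 and PSCI 1 (adjusted p up to 0.151 in taVNS against PSCI and 0.142 in PSCI against control), and that of Ripk2 without any except PSCI 1 and taVNS 3 (adjusted p up to 0.104). For Traf6 the 2 deposited tables gave different sizes in PSCI against control, 2.14 log2 units from counts and 1.62 from RPKM. In taVNS against PSCI they also differed for Traf6, by more than 0.25 log2 units beyond the median difference over the genes compared.

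C3ar1, the complement C3a receptor that also binds a VGF peptide and is typical of microglia, was lower in taVNS against PSCI (−1.88, edgeR adjusted p = 0.0271) and higher in PSCI against control (2.28, adjusted p = 0.00949). From the group means of C3ar1, RPKM gave −2.42 for taVNS against PSCI and 2.78 for PSCI against control, against −1.88 and 2.29 from counts. The call in taVNS against PSCI ended without PSCI 3 or any taVNS library (−2.09 to −1.74, adjusted p up to 0.121). C1qbp, the other receptor reported for VGF peptides, was not called.

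The 23 activity-induced genes respond to the same neuronal signals as Bdnf, Nrn1 and Vgf. In PSCI against control their median log2 fold change was −0.51. Over all genes, 7.71% were called higher and 2.14% lower there. Of the 23, 0 were called higher and 5 lower. They were Npas4, a neuron-specific transcription factor that acts on Bdnf (−3.99, edgeR adjusted p = 0.0079), the zinc finger factor Egr2 (−3.07, adjusted p = 0.00799), the orphan nuclear receptors Nr4a2 (−1.23, adjusted p = 0.00378) and Nr4a3 (−1.23, adjusted p = 0.0259), and Egr1 (−1.25, adjusted p = 0.0394), which was added to the named genes after its values were seen. The Nr4a3 call ended without any control library or PSCI 3 (adjusted p up to 0.0964), and that of Egr1 without any single library except PSCI 1 and PSCI 2 (adjusted p up to 0.113). Npas4 had 0.771, 2.59 and 0.615 CPM in taVNS, 0.341, 0.510 and 0.457 CPM in PSCI, and 11.1, 7.01 and 3.09 CPM in control. Control lay above the other groups in every library. The group means of Npas4 gave −4.02 for PSCI against control from counts and −4.25 from RPKM. In taVNS against control 0 of the 23 were called. There 9 of them had an unadjusted edgeR p under 0.05, all lower, against 3.75% of all genes in either direction. Of the 23, 22 had a fold change under 0, and the median was −0.78, against 0.00 over all genes. For taVNS against PSCI 0 were called and the median was −0.17.

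**Figure D5:**
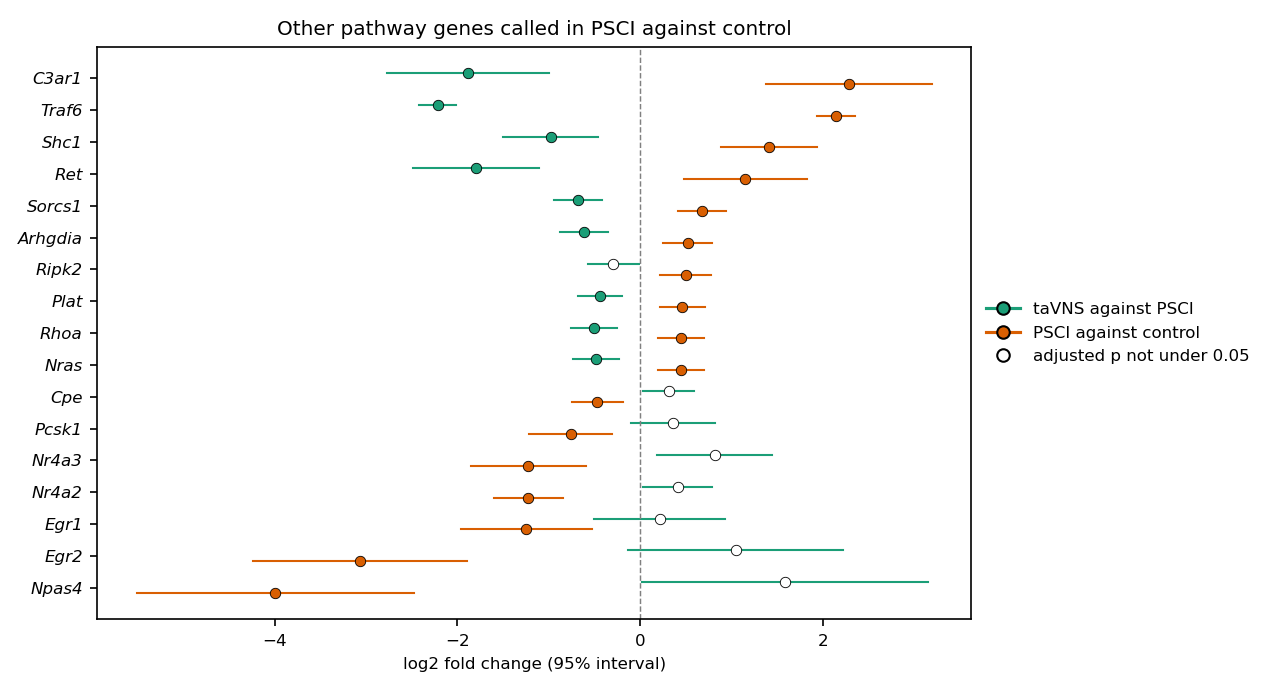
Log2 fold change with 95% interval of the 17 other pathway genes called in PSCI against control, in taVNS against PSCI and in PSCI against control; open points did not reach an adjusted p under 0.05. The 10 genes higher in PSCI than in control lie left of 0 in taVNS against PSCI, 9 of them as calls, and the 7 lower ones were not called there. Both comparisons use the PSCI libraries by which these genes were picked, so opposite signs are partly built in. Of the 9 calls in taVNS against PSCI, only 1 (Traf6) held under all 20 alternatives.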

How the data were processed

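Poly(A)-selected hippocampal RNA was sequenced from 9 rats, 1 library each. The authors deposited expected counts per gene and RPKM per gene, the RPKM scaled by them for gene length and depth. The tools named per the submitters' processing notes are HISAT2 2.0.4 and RSEM 1.2.8, and the build is mRatBN7.2; their roles, the annotation and the use of strand in counting are not given in the sources used here, so reads of overlapping or antisense genes may be shared. Deposited expected counts were rounded to whole numbers. With R 4.3.3 and edgeR 4.0.16, 14840 genes kept by filterByExpr were TMM scaled, and quasi-likelihood F tests were made in 1 fit of all 9 libraries on group (6 residual degrees of freedom), with Benjamini-Hochberg adjustment and a threshold of 0.05. Simulated counts, drawn from the fitted model with the same spread in all groups, served only to check the recovery of known fold changes. They do not show how the test behaves where groups differ in spread, as the groups here do. Levels are CPM after TMM, with mean and SD of 3 libraries; log2 CPM used a prior count of 2. Fold changes are log2 values of the first-named group over the other. Exact permutation tests are two-sided. Intervals are at the 95% level, and floors rest on 3 counts.

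The genes, pathway lists and markers were chosen with earlier results of these data known. All 8 genes of the set are named. From the lists, at most the 4 called genes with the smallest p in each list and comparison are named, with Ntf4, Sort1, Gfra1 and Ret at their levels; some genes of the rule are not reported here. Nearest profiles are given for genes whose log2 CPM had an SD of at least 0.5, from genes with a mean of at least 1 CPM. Alternatives were DESeq2 1.42.0, limma 3.58.1 (voom, and log2 of RPKM plus a pseudocount of 0.1 or 1), other scalings and filters, a replicate block, and leaving out libraries. Counts per RPKM were taken for genes with a mean count of at least 200 and an RPKM of at least 1. Promoter windows come from RefSeq, GRCr8. Of 18733 gene identifiers, 18486 were in that table, with all 8 genes of the set. Figures were drawn with matplotlib 3.10.9.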

Additional observations from a re-analysis of the deposited data

How the results depend on the processing

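Over 20 alternatives, the 21 results of the 7 tested genes gave 416 values: 381 kept direction and side of the threshold, 32 changed direction and 3 passed the threshold. None of the 32 had an adjusted p under 0.05 (smallest 0.536).

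The number of genes called in PSCI against control was 1461, with 2257 by DESeq2 and 806 from those 6 libraries alone; leaving out 1 library gave 548 (without control 3) to 2255 (without PSCI 1). In taVNS against PSCI it was 854, with 1550 by DESeq2, 480 by limma-voom, 250 from those 6 libraries alone, 518 with a replicate block and 361 without PSCI 2 and taVNS 3 together; leaving out 1 library gave 172 (without taVNS 1) to 1707 (without PSCI 1). In taVNS against control it was 0, with 9 by DESeq2, 1 by limma on log2(RPKM + 0.1) without a filter and 1 without PSCI 2 and taVNS 3; leaving out 1 library gave 0 to 1. Of the set, DESeq2 called 1 in taVNS against PSCI (Vgf), and leaving out 1 library gave 0 to 1 there and 0 to 1 in PSCI against control (Ntf3, without PSCI 1). Vgf in taVNS against PSCI had an adjusted p of 0.0105 to 0.185 over the alternatives. Pathway genes called in PSCI against control numbered 17, with 7 from those 6 libraries, 10 with the replicate block and 7 to 28 with 1 library left out. In taVNS against PSCI they numbered 9, with 5 by limma-voom, 2 from those 6 libraries, 3 with the block, 2 without PSCI 2 and taVNS 3, and 1 to 17 with 1 library left out. In taVNS against control DESeq2 called 2. Calls held under all alternatives for 7 of 17 pathway genes in PSCI against control (C3ar1, Egr2, Npas4, Nr4a2, Shc1, Sorcs1 and Traf6) and 1 of 9 in taVNS against PSCI (Traf6).

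Changed signs follow, as log2 fold changes. For Bdnf in PSCI against control the value was 0.26 without PSCI 2 and taVNS 3, and −0.995 to 0.28 with 1 library left out. For Bdnf in taVNS against PSCI it was 0.51 by limma-voom, 0.26 with the replicate block, 0.46 by limma on log2(RPKM + 0.1) with or without a filter, 0.34 with a pseudocount of 1, and −0.58 to 0.69 with 1 library left out. Ngfr in taVNS against PSCI gave 0.0147 by DESeq2, 0.0131 with RLE factors, 0.0113 with the block, 0.00059 from 6 libraries, 0.68 without PSCI 2 and taVNS 3, and −0.40 to 0.41. Nrn1 there gave −0.0357 without PSCI 2 and taVNS 3, and −0.0758 to 0.76. Ntrk2 in taVNS against control gave 0.0395 on log2(RPKM + 0.1), with or without a filter, 0.0390 with a pseudocount of 1, and −0.0715 to 0.11; leaving out 1 library gave −0.14 to 0.0069 in taVNS against PSCI and −0.0172 to 0.18 in PSCI against control. Ntrk3 in taVNS against control gave −0.0335 to 0.0624. Vgf in PSCI against control gave 0.0113 without PSCI 2 and taVNS 3, and −0.32 to 0.15. The cause was not tested.

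The replicate numbers were not shown to pair the samples: same-numbered deviations correlated at −0.468 to 0.255, so the block values are given only here. Gdnf and Ngfr rest on 2 to 22 counts a library, which limits their precision.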
